A study of Mus musculus with 40 samples.

Results

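The 10 transcripts described here lie on mouse chromosome 6 and were taken by gene symbol from the 27179 genes of the deposited expression table. They are BC064078, Clec12a, Clec1b, Clec2d, Clec4d, Clec4e, Clec4n, Clec4a2, Clec5a and Clec7a. The 9 Clec genes are C-type lectin receptors, and BC064078 is not: RefSeq lists it as a long non-coding RNA and GENCODE as a transcribed unprocessed pseudogene. Clec7a is protein coding in RefSeq but a polymorphic pseudogene in GENCODE. The group was chosen by its KO minus WT differences: BC064078, Clec12a and Clec1b differed between wildtype (WT) and Cpeb4 knockout (KO) macrophages at every time measured. Their genotype differences, and those of the other 7 transcripts, are therefore given as a description without a test, whereas changes with lipopolysaccharide (LPS) did not enter the choice and were tested.

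The libraries came from bone marrow-derived macrophages (BMDMs) of adult male mice of mixed C57BL/6J and 129 background, either WT or labelled CPEB4-KO, the full rather than the myeloid-restricted Cpeb4 knockout. Femoral marrow had been differentiated for 7 days in medium with L-cell conditioned supernatant as the source of M-CSF. Cells were left untreated (0 hr) or exposed to 10 ng/ml LPS for 1, 3, 6 or 9 hr. Each of 4 WT mice (25, 69, 87 and 88) and 4 KO mice (2, 3, 55 and 62) gave all 5 times, so there were 40 poly(A) RNA-seq libraries, in 2 batches that each held 2 mice of either genotype. No cage held mice of both genotypes, so cage and genotype cannot be told apart. All values below are regularized log (rlog) values, the log2-scaled, depth-corrected levels deposited by the authors. They are shrunken toward each gene's mean where counts are low, so differences of low transcripts are understated.

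C-type lectin receptors are membrane proteins whose extracellular lectin-like domain binds sugars, glycolipids, crystals or other proteins on microbes and host cells. Activating receptors signal through the kinase Syk, either directly or through the adaptors Fcer1g and Tyrobp, and onward through Card9, Bcl10 and Malt1 to NF-kB. Inhibitory receptors carry a tail that recruits the phosphatases Ptpn6 and Ptpn11. Many of the genes sit in clusters on mouse chromosome 6, next to the natural killer gene complex. Macrophages are known for raising Clec4e, which encodes Mincle, after LPS.

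In GRCm38.p6, the build equal to the authors' mm10, the transcripts form a pair of groups and 1 outlying gene. Clec5a lies alone at chr6:40574898-40585805. Clec4a2 (chr6:123122690-123143999), Clec4n (chr6:123229843-123247024), Clec4d (chr6:123262107-123275268) and Clec4e (chr6:123281789-123289871) are adjacent. BC064078 (chr6:128992961-129006647), Clec2d (chr6:129180615-129186535), Clec12a (chr6:129349783-129365303), Clec1b (chr6:129397297-129405413) and Clec7a (chr6:129461591-129472785) follow about 6 Mb further along, the Clec4e start being 6.07 Mb from that of Clec12a. Clec4e, Clec5a and Clec7a are on the minus strand and the others on the plus strand. Reads could be shared where genes overlap, since the library kit does not mark strand: Clec1b shares 474 bases with Clec9a in GENCODE and lies wholly inside the RefSeq span of Clec12b, Clec7a lies inside the RefSeq long non-coding RNA Gm45969, and Clec4a2 shares 151 bases with the pseudogene Gm44132.

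The 250 bases before the start in the RefSeq promoter table are shown for Clec12a and Clec1b, which differed between genotypes at every time, and for Clec4e, which rose most with LPS. RefSeq held such a sequence for 8 of the 10 transcripts, not for BC064078 and Clec4n. Each runs 5′ to 3′ toward the start, from chr6:129349994-129350243 (plus strand), chr6:129397047-129397296 (plus strand) and chr6:123289872-123290121 (minus strand). For Clec12a that start, at position 129350244, lies 461 bases inside the gene span given above, so the stretch shown is within that span and positions are counted from this inner start. For Clec1b and Clec4e it is the first base of the span. Capitals mark matches, on either strand, to the letters GGGANTTTC (NF-kB), TGANTCA (AP-1), TTGCNNAA (C/EBP) or GAGGAAG (PU.1), which none of the printed matches share with another motif.
Clec12a: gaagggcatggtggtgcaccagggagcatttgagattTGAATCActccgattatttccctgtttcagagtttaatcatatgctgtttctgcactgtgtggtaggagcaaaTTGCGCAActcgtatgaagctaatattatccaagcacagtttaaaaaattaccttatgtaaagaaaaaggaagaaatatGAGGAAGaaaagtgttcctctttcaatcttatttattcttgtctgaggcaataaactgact
Clec1b: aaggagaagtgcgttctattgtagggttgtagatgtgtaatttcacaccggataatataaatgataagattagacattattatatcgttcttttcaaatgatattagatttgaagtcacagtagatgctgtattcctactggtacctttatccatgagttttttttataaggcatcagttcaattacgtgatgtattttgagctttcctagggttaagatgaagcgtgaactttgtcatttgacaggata
Clec4e: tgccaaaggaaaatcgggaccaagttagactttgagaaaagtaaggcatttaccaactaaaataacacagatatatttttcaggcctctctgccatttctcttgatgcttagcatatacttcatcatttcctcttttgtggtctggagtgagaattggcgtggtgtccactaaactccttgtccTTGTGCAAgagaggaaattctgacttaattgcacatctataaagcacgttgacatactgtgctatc
The Clec12a stretch held an AP-1 match 213 to 207 bases before the start, a C/EBP match 140 to 133 bases before it and a PU.1 match 61 to 55 bases before it. The Clec4e stretch held 1 C/EBP match, at 66 to 59 bases before the start, and the Clec1b stretch held no match. Among the others, Clec5a had 2 PU.1 matches, Clec4d 1 PU.1 match and Clec2d 1 NF-kB match, and Clec4a2 and Clec7a had none. Of 27025 genes with such a stretch, 0.977% held the NF-kB letters, 6.87% the AP-1 letters, 9.55% the C/EBP letters and 10.4% the PU.1 letters. A match is a description of the letters and not evidence of binding.

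The cultures were macrophages by their markers: all 8 macrophage markers had means of 9.62 or more in both genotypes, and none of the 4 B cell, 4 T cell, 4 NK cell or 3 fibroblast markers reached a mean rlog of 2.32 over the 40 libraries, the log2 of 5 counts that served as the filter. Of the remaining lists, 2 of 5 neutrophil, 2 of 4 dendritic cell and 1 of 3 erythroid markers reached it. The NK marker Klrb1c had a mean of 1.19 in WT and 2.45 in KO, and it lies 0.21 Mb from BC064078 on chromosome 6. The other 3 NK markers had means of −0.51 and −0.48 (Ncr1), 0.58 and 0.57 (Eomes) and −2.25 and −2.25 (Gzma) in WT and KO. LPS induced Tnf from 12.5 ± 0.03 to 16.8 ± 0.04 (SD, n = 4) at 1 hr in WT. Cpeb4, on chromosome 11, checks the labels only weakly, since the table counts the whole gene and the deleted part is not given in the sources used here. KO libraries lay below WT libraries at 6 hr (8.74 to 9.66 against 10.1 to 10.7) and the genotypes overlapped at the other 4 times, so genotypes are used as labelled. In bulk RNA, fewer cells expressing a gene and less RNA per cell cannot be told apart.

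Levels differed widely between the transcripts. On a per-length scale (rlog minus log2 of the longest GENCODE transcript in kb), untreated WT cells had most Clec4d at 13.6 ± 0.09 (SD, n = 4), then Clec12a at 13.4 ± 0.12, and these neighbours overlapped between libraries. Clec2d (11.6 ± 0.18) and Clec4e (11.2 ± 0.03) came next, above Clec4a2 (10.7 ± 0.09) and Clec7a (10.7 ± 0.22), which overlapped each other. Clec5a (8.57 ± 0.10) overlapped Clec4n (8.20 ± 0.20), and the lowest were BC064078 (4.81 ± 0.32) and Clec1b (3.14 ± 0.16). By 9 hr of LPS Clec4e led at 14.8 ± 0.04 in WT and 14.6 ± 0.07 in KO. Clec1b and BC064078 changed places with genotype: untreated KO cells had more Clec1b (4.13 ± 0.13) than BC064078 (3.47 ± 0.20).

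**Figure D1:**
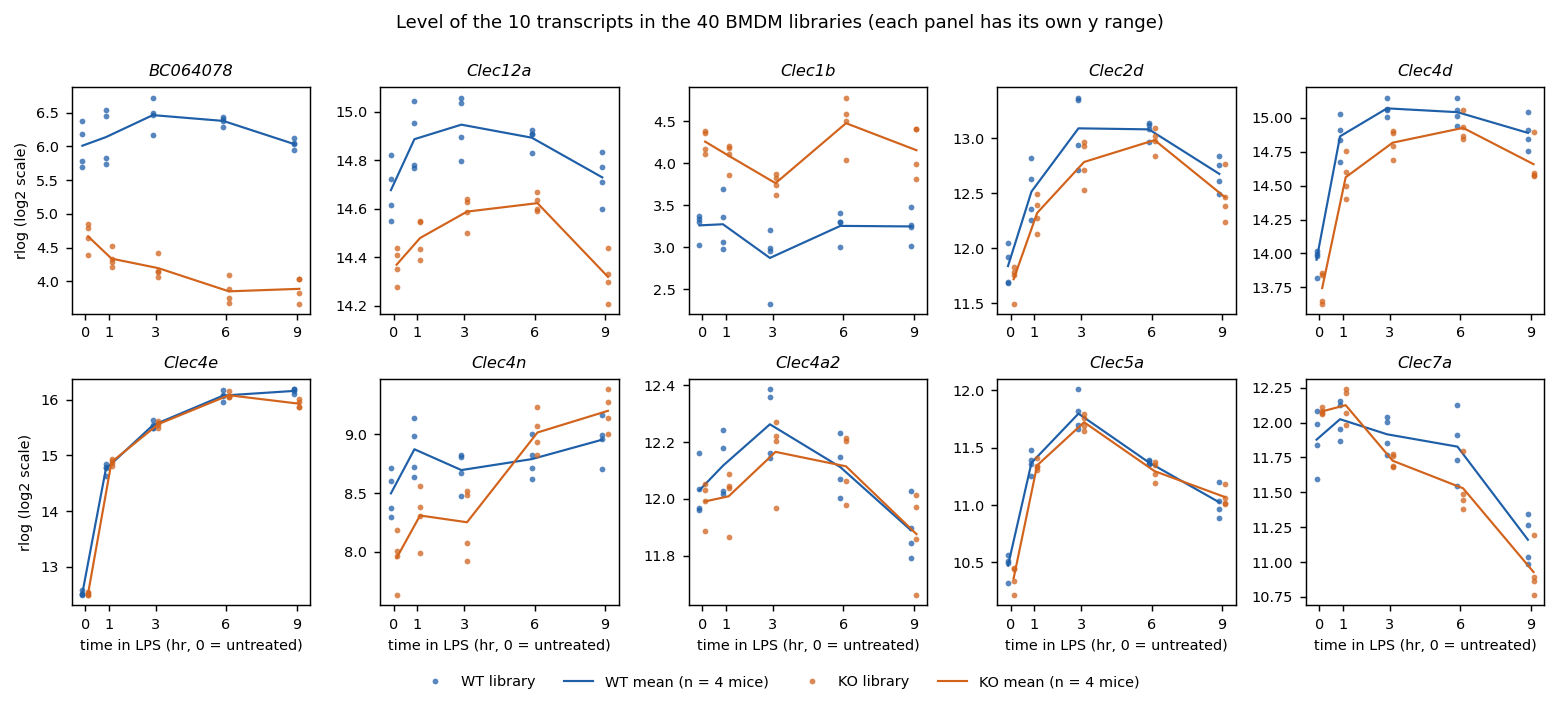
Level of each transcript (y axis, rlog on a log2 scale, own range per panel) against hours in LPS (x axis), with 1 point per library and lines through the means of 4 mice, WT in blue and KO in orange. BC064078 and Clec12a are lower in every KO library than in any WT library of the same time, Clec1b is higher, Clec4e rises by over 3 units in both genotypes, and the WT and KO lines of Clec4n cross between 3 and 6 hr.

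BC064078, the non-coding transcript, was the member with the largest genotype difference. Untreated WT libraries had 5.70, 5.78, 6.19 and 6.38, and untreated KO libraries 4.39, 4.65, 4.79 and 4.85. At 6 hr of LPS the WT libraries were at 6.30, 6.38, 6.41 and 6.44 and the KO libraries at 3.68, 3.76, 3.88 and 4.10. The highest KO library stayed below the lowest WT library at all 5 times. At 0, 1, 3, 6 and 9 hr KO minus WT was −1.34 ± 0.16 (SE, n = 4 mice per genotype), −1.80 ± 0.19, −2.27 ± 0.14, −2.53 ± 0.12 and −2.15 ± 0.11, that is 2.54-fold lower at 0 hr and 5.76-fold lower at 6 hr. Within batches the difference ran from −2.59 to −1.26.

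Clec12a encodes MICL, an inhibitory receptor that binds uric acid crystals and dead cells. Its untreated values were 14.55, 14.62, 14.72 and 14.82 in WT and 14.28, 14.35, 14.41 and 14.44 in KO. At 9 hr they were 14.60, 14.71, 14.77 and 14.83 in WT and 14.21, 14.30, 14.33 and 14.44 in KO. The KO libraries were again all below the WT libraries at every time, by a much smaller margin: the differences in the same order were −0.31 ± 0.06 (SE), −0.41 ± 0.07, −0.36 ± 0.07, −0.27 ± 0.04 and −0.41 ± 0.07, or 1.21-fold to 1.33-fold lower. After quantile normalization, which forces all libraries to 1 distribution, it was −0.15 at 6 hr.

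Clec1b encodes CLEC-2, a receptor for podoplanin best known from platelets. Untreated WT libraries had 3.03, 3.30, 3.34 and 3.37 and untreated KO libraries 4.11, 4.17, 4.36 and 4.38. At 6 hr the values were 3.00, 3.30, 3.31 and 3.41 in WT and 4.03, 4.51, 4.58 and 4.78 in KO. All KO libraries were above all WT libraries at every time, with differences of 1.00 ± 0.13 (SE), 0.82 ± 0.17, 0.89 ± 0.19, 1.22 ± 0.17 and 0.91 ± 0.17 at 0, 1, 3, 6 and 9 hr. Clec1b is close to the filter and near its overlapping neighbours: Clec12b, where tested, was also higher in KO (1.19, 0.68 and 0.72 at 1, 6 and 9 hr). Clec9a was higher in KO by 0.88, 0.82, 0.15, 0.34 and 0.43 at 0, 1, 3, 6 and 9 hr, and was called only at 0 hr. Of 5 platelet and megakaryocyte markers, Gp9, Gp1bb and Gp6 were at 0.904 or less in every library, and Itga2b (mean 3.68 in both genotypes) and Ppbp (4.83 in WT, 5.07 in KO) passed the filter. The log2 of the summed level of the 5 ran from 4.98 to 5.76 in WT and from 5.16 to 5.91 in KO, and the part of these cells in the Clec1b difference was not tested.

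None of the other 7 transcripts was separate by genotype at every time, and the rule has no fixed size at which it divides the 10. Clec4n, which encodes the mannan receptor Dectin-2, had KO minus WT of −0.55, −0.56 and −0.44 at 0, 1 and 3 hr, yet of 0.23 and 0.25 at 6 and 9 hr. Its early differences were thus wider than those of Clec12a at the same times. Clec4d, which encodes the Mincle partner MCL, had KO minus WT between −0.30 and −0.12 at the 5 times, and its libraries were separate by genotype at 3 hr, with −0.25. Clec2d, a ligand of NK cell receptors of the Klrb1 family, lay between −0.31 and −0.10, with overlapping libraries at all 5 times. Clec7a went from 0.20 at 0 hr to −0.30 at 6 hr, also with overlapping libraries at all 5 times. Clec4a2 and Clec5a stayed within 0.11 of 0. Clec4e was lower in every KO library only at 9 hr, by 0.23, a value that was −0.04 after quantile normalization.

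By limma, with genes called at a Benjamini-Hochberg adjusted p under 0.05 over all genes tested at that time, 3, 3, 4, 3 and 4 of the 10 were called at 0, 1, 3, 6 and 9 hr. Over all genes the shares called were 1.31, 1.91, 3.68, 16.3 and 7.91%, and 0.237% of the genes tested at every time were called at all 5. Nothing is read from these member counts, since this contrast chose the members. The call of Clec12a at 0 hr was lost under 11 of 14 alternatives, including 7 of the 8 that left out 1 mouse (all but WT 25), and that of Clec1b at 1 hr under 10 of 13, while the difference itself stayed between −0.35 and −0.23 for Clec12a and between 0.72 and 0.96 for Clec1b. Clec12a also lost its call under 7 of 14 at 1 hr and 5 of 14 at 3 hr, and Clec1b under 9 of 13 at 3 hr. The calls of Clec4d at 3 hr and Clec4e at 9 hr were lost under 11 and 8 of 14. No alternative lost a call of BC064078.

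**Figure D2:**
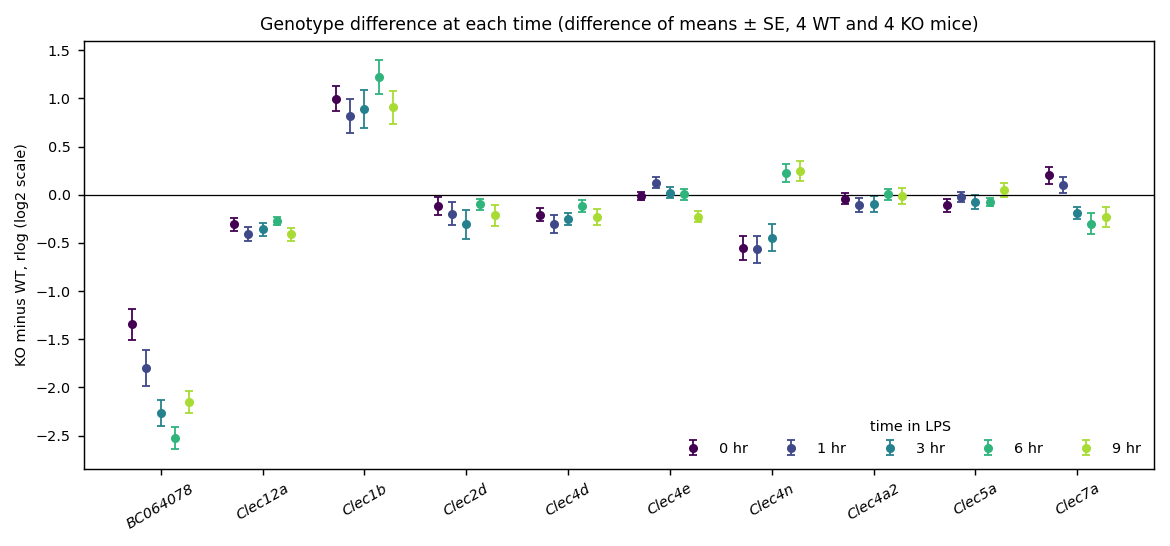
KO minus WT (y axis, rlog on a log2 scale) for each transcript (x axis) at 5 times in LPS, as the difference of means with its SE, 4 mice per genotype. BC064078 reaches −2.53 at 6 hr, Clec12a lies between −0.41 and −0.27, Clec1b between 0.82 and 1.22, and Clec4n passes from −0.55 at 0 hr to 0.25 at 9 hr.

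Some genes around BC064078, Clec12a and Clec1b were called by genotype at each time, though no single neighbour was called at all 5. The table holds 57 other genes that start within 1 Mb of 1 of the 3, of which 17 to 20 passed the filter at a given time. Of these, 5 of 20, 7 of 20, 8 of 18, 10 of 17 and 7 of 17 were called over the 5 times, or 25, 35, 44.4, 58.8 and 41.2%, beside the shares of all genes above. Differences went both ways but mostly down in KO: 7 of the 8 calls at 3 hr and 8 of the 10 at 6 hr were lower. Within 5 Mb, 6 of 79, 8 of 79, 10 of 79, 27 of 77 and 15 of 77 tested genes were called, or 7.59, 10.1, 12.7, 35.1 and 19.5%. These counts include the genes within 1 Mb, and the genes beyond 1 Mb were not counted apart. The median absolute difference at 0 hr was 0.21 within 1 Mb, 0.09 within 5 Mb and 0.09 over all genes. At 6 hr it was 0.34, 0.19 and 0.10.

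By the naming rule 3 neighbours stand out, each called at 4 of the 5 times. Klra17, of the Ly49 receptor family, had 4.55 to 5.27 in untreated WT and 2.01 to 2.76 in untreated KO, a difference of −2.30 ± 0.20 (SE, n = 4), which narrowed to −0.44 ± 0.14 at 9 hr as the WT level fell. The long non-coding RNA Gm15987, which starts 0.04 Mb before BC064078, was lower by 1.27 ± 0.10 at 3 hr and by 1.26 ± 0.12 at 9 hr. Cd69, an early activation marker, was lower by 0.80 ± 0.14 at 3 hr and by 0.75 ± 0.13 at 6 hr. A further pair of Ly49 genes, chosen after their values were seen, differed in opposite directions at the 3 times they were tested: Klra3 was higher in KO by 2.72 at 0 hr and Klra1 lower by 3.03. Ly49 genes are near-identical copies, so how reads were split between them is uncertain. The mice are of mixed background, and the strain of origin of chromosome 6 in each mouse was not analysed here.

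**Figure D3:**
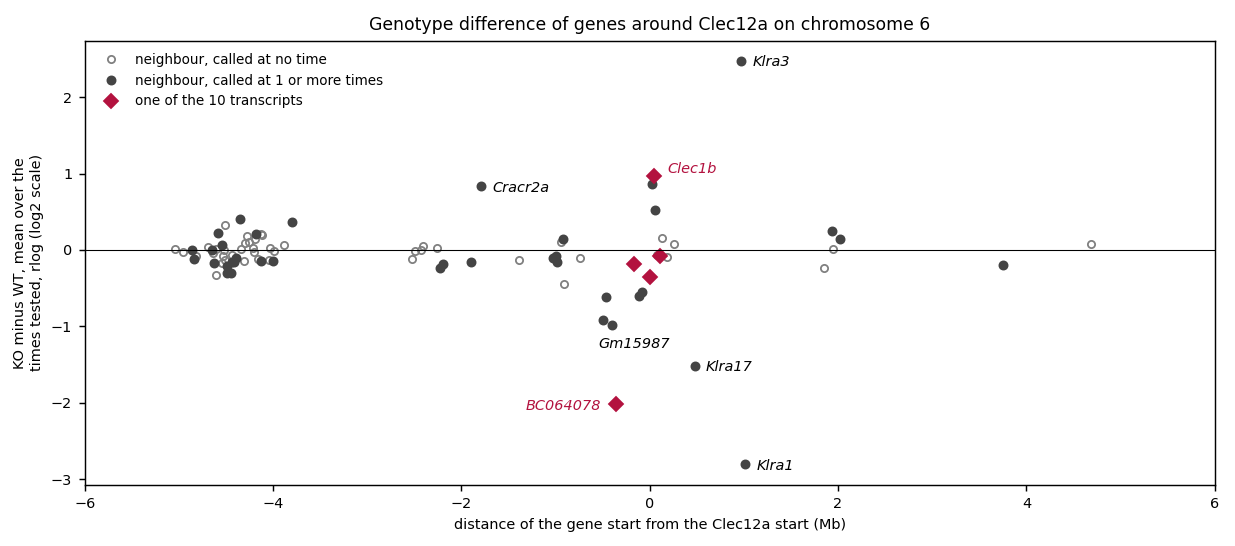
KO minus WT averaged over the times tested (y axis, rlog on a log2 scale) against distance of a gene's start from that of Clec12a (x axis, Mb), for genes that passed the filter. Filled circles are neighbours called at 1 or more times, open circles those called at none, and diamonds are members of the 10. Klra3 above 0 and Klra1, BC064078 and Klra17 below 0 lie farthest from it, all within 1.01 Mb of Clec12a.

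LPS was tested next, in 1 limma model of the 40 libraries with the 10 groups of genotype and time, over 13103 genes. In WT, 6, 7, 6 and 5 of the 10 transcripts rose at 1, 3, 6 and 9 hr and 0, 1, 0 and 1 fell, where 19.4, 33.5, 39.7 and 37.0% of all genes rose and 18.3, 36.4, 40.2 and 36.6% fell. In KO, 5, 6, 6 and 5 rose and 0, 3, 2 and 2 fell, where 22.6, 33.7, 38.4 and 35.7% of all genes rose and 19.4, 36.2, 39.5 and 35.6% fell. The median change of the 10 was 0.33 in WT and 0.59 in KO at 6 hr, beside −0.02 over all genes in both. Among genes with a mean rlog of 12 or more, a level that only some of the 10 reach, it was 0.58 in WT and 0.51 in KO. Clec2d, Clec4d, Clec4e and Clec5a each rose at all 4 times in both genotypes and kept call and direction under every alternative tried, though not their size: after quantile normalization the WT rise at 6 hr was 0.57 for Clec2d and 0.19 for Clec4d, against 1.24 and 1.09 on the deposited scale. By that scaling 5, 5, 6 and 5 of the 10 rose in either genotype, and 1, 3, 3 and 3 fell in WT and 2, 5, 4 and 4 in KO.

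Clec4e changed by far the most of the 10. WT libraries went from 12.50, 12.52, 12.52 and 12.58 when untreated to 14.62, 14.77, 14.79 and 14.85 at 1 hr and 16.09, 16.15, 16.19 and 16.19 at 9 hr. KO libraries went from 12.49, 12.49, 12.53 and 12.55 to 14.81, 14.87, 14.90 and 14.93 and then 15.87, 15.87, 15.95 and 16.01. No library of one of these times overlapped another time. In WT the rise was 2.23 ± 0.05 (SE), 3.01 ± 0.05, 3.54 ± 0.05 and 3.63 ± 0.05 at 1, 3, 6 and 9 hr, or 4.68-fold at 1 hr and 12.4-fold at 9 hr (limma adjusted p = 7.49e-37). In KO it was 2.37, 3.05, 3.56 and 3.41, so the 9 hr rise was 10.6-fold.

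Clec4d, next to Clec4e on the chromosome, rose less and early. Its WT mean went from 13.95 to 14.86 at 1 hr and stayed between 14.89 and 15.07 from 3 to 9 hr, a rise of 0.91 ± 0.08 at 1 hr and 1.12 ± 0.08 at 3 hr. In KO it rose by 0.82 at 1 hr and by 1.18 at 6 hr. After quantile normalization these rises were 0.48 and 0.46 in WT and 0.45 and 0.39 in KO. The untreated and treated libraries did not overlap in either genotype. Clec4e and Clec4d correlated with r = 0.90 over the 40 libraries, which share mice, batches and the time course, so this is a description only.

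Clec5a, which encodes MDL-1, a partner of the adaptor Tyrobp, peaked at 3 hr. Its WT rise over the 4 times was 0.90 ± 0.07, 1.33 ± 0.07, 0.90 ± 0.07 and 0.55 ± 0.07, and its KO rise 0.98, 1.36, 0.93 and 0.71. Clec2d rose in WT by 0.68 ± 0.13, 1.25 ± 0.13, 1.24 ± 0.13 and 0.84 ± 0.13, and in KO by 0.60, 1.07, 1.27 and 0.75. Both thus ended nearer to their untreated level at 9 hr than at 3 hr, unlike Clec4e.

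Clec12a and Clec4a2, which encodes the inhibitory receptor DCIR, had small changes whose direction depended on the scaling. On the deposited scale Clec12a rose in WT by 0.21 ± 0.06, 0.27 ± 0.06 and 0.22 ± 0.06 at the first 3 times, but after quantile normalization it fell by 0.15, 0.31 and 0.62. In KO it rose by 0.22 at 3 hr and 0.25 at 6 hr and fell after quantile normalization by 0.34 and 0.54. Clec4a2 rose at 3 hr by 0.23 in WT and 0.17 in KO and fell after quantile normalization by 0.23 and 0.26, and without WT 25 the WT call was lost (0.18). Among abundant genes (mean rlog of 12 or more) the median change in WT was 0.14, 0.34, 0.58 and 0.44 at 1, 3, 6 and 9 hr on the deposited scale, so the Clec12a rise at 3 and 6 hr was smaller than that of a typical gene of its abundance.

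Clec7a encodes Dectin-1, the receptor for fungal beta-glucan, and was the 1 receptor of the 10 called lower at 9 hr in both genotypes on the deposited scale without a block. Under other settings Clec4a2 was called lower there too, by 0.14 in WT and 0.12 in KO with the mouse as a block and by 0.53 and 0.49 after quantile normalization, which also put Clec12a lower by 0.49 and 0.60. WT libraries had 11.59, 11.84, 11.99 and 12.09 when untreated and 10.99, 11.04, 11.27 and 11.35 at 9 hr. KO libraries had 12.06, 12.07, 12.08 and 12.11 and then 10.76, 10.86, 10.89 and 11.20. All 8 mice fell, by 0.72 ± 0.11 in WT (limma adjusted p = 2.97e-07) and by 1.15 ± 0.11 in KO (adjusted p = 8.01e-12). In KO it had fallen by 0.35 ± 0.11 at 3 hr and 0.55 ± 0.11 at 6 hr, where the WT changes were 0.04 and −0.05 and did not pass the test. After quantile normalization Clec7a fell in WT too, by 0.37 at 3 hr and 0.59 at 6 hr, and in KO by 0.76 and 1.04.

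Clec1b on the deposited scale passed the test only at 3 hr, with a fall of 0.39 ± 0.17 in WT (adjusted p = 0.042) and of 0.50 ± 0.17 in KO (adjusted p = 0.010). The WT call was lost without WT 69, WT 87, WT 88, KO 2 or KO 55, and without WT 88 the fall was 0.19. It was also lost after quantile normalization (a fall of 0.31, adjusted p = 0.10), where Clec1b in KO instead rose at 6 hr by 0.45 (adjusted p = 0.017, on the deposited scale a change of 0.22). BC064078 moved in opposite directions. It rose in WT by 0.45 ± 0.15 at 3 hr and 0.37 ± 0.15 at 6 hr, in 4 of 4 mice each, and fell in KO by 0.47 ± 0.15, 0.82 ± 0.15 and 0.78 ± 0.15 at 3, 6 and 9 hr, also in 4 of 4 mice. The WT calls were lost without WT 25 (0.35 at 3 hr, 0.26 at 6 hr) and, at 6 hr, without WT 69 (0.32), and the KO call at 3 hr was lost without KO 55 (a fall of 0.40).

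Whether the LPS change itself differed between genotypes was tested for the 7 transcripts other than BC064078, Clec12a and Clec1b. At 1 and 3 hr limma called 0 of the 7 (1 each time at an unadjusted p under 0.05), beside 0.00763 and 0.206% of all genes. At 6 and 9 hr it called 1 of the 7 each time, Clec4n, beside 2.94 and 1.76% of all genes. With each mouse as a block, which removes the level of the mouse, 2 were called at 6 hr (Clec4n and Clec7a) and 3 at 9 hr (Clec4n, Clec7a and Clec4e).

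Clec4n rose more in KO than in WT from a lower untreated level. Untreated WT libraries had 8.30, 8.37, 8.60 and 8.72 and KO libraries 7.63, 7.97, 8.00 and 8.18. At 6 hr they had 8.62, 8.71, 8.83 and 9.00 against 8.82, 8.93, 9.08 and 9.23, and at 9 hr 8.70, 8.96, 8.99 and 9.16 against 9.00, 9.14, 9.28 and 9.39. The genotypes were separate at 0 and 1 hr and overlapped at 3, 6 and 9 hr. The rise was 0.29 ± 0.14 in WT and 1.07 ± 0.14 in KO at 6 hr, and 0.46 ± 0.14 and 1.26 ± 0.14 at 9 hr, so KO cells rose more by 0.78 ± 0.20 (limma adjusted p = 0.024) and by 0.80 ± 0.20 (adjusted p = 0.026), both set against the same untreated libraries. Every KO mouse rose more than any WT mouse at both times, the difference was 0.84 and 0.72 in the 2 batches at 6 hr and 0.97 and 0.63 at 9 hr, and with the mouse as a block adjusted p was 5.91e-05 and 5.07e-05. Without the block the call was lost at 6 hr without KO 3 (0.70, adjusted p = 0.061), KO 62 (0.78, 0.108), WT 69 (0.76, 0.063) or WT 87 (0.76, 0.072), and at 9 hr without KO 3 (0.67, 0.107), KO 62 (0.84, 0.079), WT 25 (0.78, 0.083) or WT 87 (0.76, 0.091).

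Clec7a fell more in KO than in WT by 0.50 ± 0.15 at 6 hr (adjusted p = 0.062, with the mouse as a block 0.0029) and by 0.43 ± 0.15 at 9 hr (0.155, with the block 0.012), so the call rests on the block. For Clec4e the KO change minus the WT change at 9 hr was −0.21 ± 0.07 (adjusted p = 0.086, with the block 0.033) and after quantile normalization −0.04 (adjusted p = 0.950). For Clec2d, Clec4d, Clec4a2 and Clec5a no call was made at any time with or without the block, and their differences in change ran from −0.19 ± 0.18 to 0.16 ± 0.09. For BC064078, given without a test, the KO change minus the WT change was −0.46, −0.93, −1.18 and −0.80 at 1, 3, 6 and 9 hr. For Clec12a it lay between −0.10 and 0.04 and for Clec1b between −0.18 and 0.22.

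**Figure D4:**
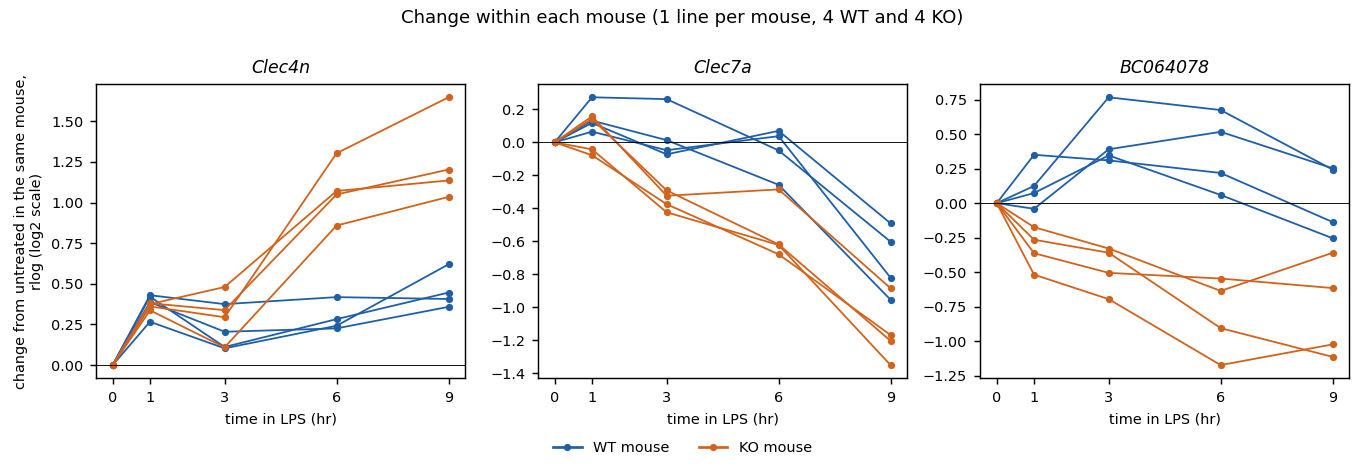
Change from the untreated library of the same mouse (y axis, rlog on a log2 scale) against hours in LPS (x axis), 1 line per mouse, WT in blue and KO in orange. The 4 KO lines of Clec4n lie above the 4 WT lines at 6 and 9 hr. Those of Clec7a lie below the WT lines at 3 hr and, narrowly, at 6 hr, and those of BC064078 lie below 0 at every time.

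Signalling partners of these receptors (19 genes, all tested) were also followed. At 6 hr 14 rose and 5 fell in WT and 14 rose and 4 fell in KO, beside 39.7 and 40.2% of all genes in WT and 38.4 and 39.5% in KO, with a median change of 0.77 and 0.85 beside −0.02 over all genes in both. Among the rises in WT were those of the kinase Src (2.76 ± 0.06) and of the NF-kB scaffold Malt1 (2.50 ± 0.12). The 3 largest falls were those of the lipid phosphatase Inpp5d (−1.52 ± 0.07), the transcription factor Nfatc1 (−1.15 ± 0.08) and the Syk-pathway adaptor Card9 (−0.43 ± 0.06). The 3 receptor adaptors, picked after their values were seen, differed: in WT Fcer1g changed by 0.77 ± 0.07 on the deposited scale and −0.02 after quantile normalization, Tyrobp by −0.35 ± 0.10 and −1.26, and Hcst by −0.37 ± 0.12 and −0.05. After quantile normalization 10 rose and 5 fell in WT at 6 hr. The median change of the 19 at 6 hr was then 0.09 in WT and 0.22 in KO, beside −0.05 and −0.03 over all genes. At 3 hr in WT the balance turned from 12 up and 3 down to 7 up and 10 down. By genotype 0, 2, 1, 4 and 3 of the 19 were called at the 5 times, beside 1.31, 1.91, 3.68, 16.3 and 7.91% of all genes.

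Other C-type lectin-like and NK-complex genes (56 listed, 55 in the table, 20 to 24 tested at a time) went both ways. By genotype 2 of 23 tested were raised and 3 reduced in untreated KO cells, beside 1.31% of all genes called in either direction. These were Clec2i, Clec9a, Klra17, Klra3 and Klra1, the same 5 genes counted above as neighbours within 1 Mb called at 0 hr. By 6 hr 2 of 20 tested were raised and 5 reduced, beside 16.3% of all genes. Among these, picked after their values were seen, the mannose receptor Mrc1 was lower by 0.44 and Clec4a1 by 0.28. With LPS at 6 hr 10 rose and 10 fell in WT and 10 rose and 7 fell in KO of 21 tested. These were near the shares of all genes, 39.7 and 40.2% in WT and 38.4 and 39.5% in KO. After quantile normalization 8 rose and 9 fell in WT and 9 rose and 7 fell in KO. The 3 largest rises in WT were those of Cd69 (4.36 ± 0.12, in KO 3.80 ± 0.12), Klrk1, which encodes the receptor NKG2D (3.37 ± 0.20, in KO 2.82 ± 0.20), and Klra2 (2.61 ± 0.09, in KO 2.85 ± 0.09). The 3 largest falls were those of Klra1 (−2.24 ± 0.20, in KO 0.22 ± 0.20), the galactose-binding lectin Clec10a (−2.12 ± 0.18, in KO −2.23 ± 0.18) and Clec2i (−1.44 ± 0.18, in KO −1.46 ± 0.18). The LPS change differed between genotypes for Klra17 and Klra1 at 6 and 9 hr and for no other tested gene of this list at any time. Klra17 in KO was near the filter of 2.32 both untreated (2.48) and at 9 hr (2.57). Klra1, lower by 3.03 in untreated KO cells, passed the filter of the genotype comparison only at 0, 1 and 3 hr. How far these low KO levels limit a fall with LPS was not tested.

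The genes whose level most resembled 4 of the transcripts over the 40 libraries are given as a description, since libraries share mice, genotypes, batches and times. BC064078 was most like Plbd1 (r = 0.91) on chromosome 6, Serinc3 (0.90) on chromosome 2 and 2310001H17Rik (0.86) on chromosome 6. Trp53rka (0.86) on chromosome 2 and Tcn2 (0.85) on chromosome 11 followed. Clec12a was most like Ms4a7 (0.94), C1qb (0.93) and again 2310001H17Rik (0.91), a long non-coding RNA 0.12 Mb from Clec12a. Clec1b was most like Dynlt1b (0.83) and Gm6334 (0.82). Clec4e was most like Acod1 (0.985), the itaconate-producing enzyme, Sod2 (0.985), Arg2 (0.983), Igsf6 (0.979) and H2-M2 (0.975).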

How the data were processed

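RNA was sequenced from 40 BMDM libraries (4 WT and 4 KO mice at 5 times). Per the labels and methods, the authors prepared poly(A) libraries with 8 amplification cycles, aligned reads with STAR 2.3.0e to mm10, counted them with featureCounts and applied the rlog transformation of DESeq2. The annotation and strand setting of the counting are not given in the sources used here. What the authors deposited is therefore log2-scaled, from −2.40 to 19.4 over 27179 genes, so count tests do not apply and depth per library is not used here. Members were matched to RefSeq GRCm38.p6 by gene ID.

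Each difference was estimated by limma (version 3.58.1, moderated with a mean-variance trend, under R 4.3.3), and p-values were adjusted by Benjamini-Hochberg over all genes. Genotypes were compared in the 8 libraries of each time, and LPS and interaction effects in 1 model of 40 libraries, keeping genes whose mean rlog reached 2.32. The fits were tested on simulated data. The members, gene lists and tests were chosen with earlier results of these data known. Named genes were the 10 members, Cpeb4, Tnf, the 5 genes most like BC064078, Clec12a, Clec1b and Clec4e, neighbours called at 4 or more times and, of each pathway list, the 3 largest rises and 3 largest falls called at 6 hr in WT, except 1 gene that is not reported here. All libraries of 1 mouse come from the same animal, and after removal of group means 68 of 80 same-mouse pairs had r over 0.1 (median 0.29, against −0.09 between mice of a genotype). Alternatives were no filter, a mean rlog of 5 or more, no trend, quantile normalization, batch as a covariate, 1 mouse left out, all libraries in 1 model and the mouse as a block.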

Additional observations from a re-analysis of the deposited data

Results flagged for a closer look

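Of 100 groups of 4 libraries checked, 2 held a library far from the other 3, where chance alone marks about 1 group in 20. Clec12a in WT at 6 hr was lowest in mouse 25 at 14.83, beside 14.91 to 14.92 in the others. Clec4d in KO at 9 hr was highest in mouse 2 at 14.90, beside 14.57 to 14.59.

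The change of Clec4n with LPS differed between genotypes by 0.78 at 6 hr (limma adjusted p = 0.024) and by 0.80 at 9 hr (adjusted p = 0.026). BC064078 rose in every WT mouse and fell in every KO mouse at 3 and 6 hr, with differences of −0.93 and −1.18. These were not tested, since BC064078 was chosen for its difference by genotype.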

How the results depend on the processing

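Of 308 recomputed counts of calls, 270 stayed within 1.5 times the count reported. Members called by genotype became 1 at 0 hr with a mean rlog of 5 or more. At 1 hr they became 6 with all libraries in 1 model and 1 without a filter or without the trend, at 3 hr 2 with batch as a covariate and 1 without a filter, and at 9 hr 2 under either filter change. Leaving out 1 mouse gave 2 to 3, 1 to 4, 1 to 5, 3 to 4 and 3 to 6 at the 5 times (1 at 1 hr without KO 3, KO 55, KO 62 or WT 88, and 1 or 2 at 3 hr without any mouse but WT 88). Members whose LPS change differed by genotype became 2 at 6 hr and 3 at 9 hr with the mouse as a block, and 0 to 1 at both times without 1 mouse. Neighbours called, for which alternatives were chosen after seeing the data, became 1, 2 and 5 at 0, 1 and 3 hr with a mean rlog of 5 or more, 9 at 0 hr without a filter, and without 1 mouse 3 to 5 (3 without WT 25), 5 to 13 (13 without WT 69), 5 to 9 (5 without KO 3 or KO 62), 8 to 10 and 4 to 8 (4 without WT 69 or WT 87).

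Quantile normalization reversed the LPS change of Clec12a in WT (−0.15, −0.31 and −0.62 at 1, 3 and 6 hr) and KO (−0.34 and −0.54 at 3 and 6 hr) and of Clec4a2 at 3 hr (−0.23 in WT, −0.26 in KO). The cause was not tested. Quantile normalization moved the share of all LPS calls that were higher from 51.5 to 37.8% in WT and from 53.8 to 37.9% in KO at 1 hr. Of genotype calls at 6 hr the share went from 39.2 to 51.0%, and of interaction calls at 6 hr from 30.6 to 44.9%. The median of all genes moved by at most 0.07. Among genes with a mean rlog of 12 or more it moved further. Their median change went from 0.34 to −0.20 in WT at 3 hr. At 6 hr it went from 0.58 to −0.19 in WT and from 0.51 to −0.19 in KO. Beyond the interaction calls, the block added LPS calls of BC064078 in KO at 1 hr (adjusted p by limma = 0.027), Clec4n at 3 hr in WT (0.026) and KO (0.0010) and at 6 hr in WT (0.0013), and Clec4a2 in KO at 6 hr (0.0088) and in both genotypes at 9 hr (0.0035 in WT, 0.015 in KO), and it changed no other call of the members. The Clec4n calls at 1 hr and the Clec4a2 call in KO at 3 hr were each lost under 4 or more alternatives.

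Values of BC064078 and Clec1b lie low, where rlog shrinks differences, and with a mean rlog of 5 or more Clec1b could not be tested at any time, nor BC064078 by genotype at 9 hr.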
